A study of Mus musculus with 6 samples.

Results

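Among CD8 T cells of the tumor-draining lymph node (LN), a small set of cells carried transcripts of *Izumo1r*, *Nrn1* or *Ctla4*. Their members were chosen from the readout itself. LN base cells were barcodes with 200 to 6000 genes, at most 3% mitochondrial counts of unique molecular identifiers (UMIs), and *Cd2*, *Cd8a* and *Cd8b1* all detected with 1 UMI or more. Members were base cells whose summed UMIs of *Izumo1r*, *Nrn1* and *Ctla4* were at least 2 and which had fewer than 3 UMIs of the chemokine gene *Ccl5*. The rule was met by 420 of 6658 base cells in the control LN library, or 6.31% (95% exact Clopper-Pearson interval 5.74 to 6.92). In the CD8-IFNγRKO LN library it was met by 294 of 6754, or 4.35% (3.88 to 4.87). Together these 714 cells were drawn from 13412 LN base cells and from 29156 base cells over the 4 single-cell libraries. The intervals in this text cover counting error only. Each LN library held sorted cells pooled from 3 mice, and cells were not assigned to mice here, so the spread between mice is not given and no test between genotypes was run, and every value below is a description of these libraries.

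All mice carried CD8α-Cre, which is active in mature CD8 T cells, and the Rosa26-Tomato reporter that Cre switches on. CD8-IFNγRKO mice additionally carried IFNgR1flox/flox, so that Cre removed the IFNγ-binding chain of the receptor from their CD8 T cells, while control mice kept it. The mice bore subcutaneous B16-OVA melanoma, a B16 line that expresses ovalbumin, and draining LN were taken at day 12. Cells sorted as CD45+ CD3+ CD8+ Tomato+ were sequenced from the 5′ end of transcripts, and the labels give no separate culture or animal within a library.

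*Izumo1r* encodes a folate receptor family protein, also known as FR4 or Juno, which is anchored in the membrane by a lipid. It is known from regulatory and anergic CD4 T cells, and as the egg receptor for sperm IZUMO1. *Nrn1* encodes neuritin, a small lipid-anchored neurotrophic protein that is also found on T cells held in tolerance or exhaustion. *Ctla4* encodes an inhibitory receptor that competes with the costimulatory receptor CD28 for its ligands and is induced by signals through the T cell receptor (TCR). Anergy is a state in which a T cell that met antigen without adequate costimulation no longer responds in full, and it is set in part by the transcription factor NFAT acting without its partner AP-1.

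Control members held 2578606 UMIs in all with a median of 5122 per cell, against 4006.5 in the other 6238 base cells of that library. CD8-IFNγRKO members held 1662244 UMIs with a median of 4796.5 per cell, against 3840 in the other 6460. A cell with more UMIs reaches 2 UMIs of the rule's genes more readily, and the depth of the members therefore moved with their choice. The LN libraries shared 240 barcodes, of which 0 were members in both. *Ifngr1*, the targeted gene, stood at 130 CPM (the UMIs of a gene over all UMIs of a group of cells, in counts per 1e6) in control members and 88.4 CPM in CD8-IFNγRKO members, and at 187 and 140 CPM in the other base cells. Reads from 5′ parts of *Ifngr1* outside a floxed stretch could still be counted, and that stretch was not located here. The level of *Ifngr1* therefore does not check the genotype labels.

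The sequences before a transcript start of 2 genes of the rule and of *Ptms* and *Capg*, which differed most from the other cells among the genes with at least 50 CPM, are shown because these genes were read together in the same cells. Each is the 250 bases before 1 transcript start, taken from RefSeq on the GRCm38.p6 build and written 5′ to 3′ on the gene's strand. Capitals mark GGAAA, the core bound by NFAT, on either strand (TTTCC on the other). The AP-1 motif TGANTCA was also searched on both strands, and the pair cannot overlap.
Izumo1r, chr9:14903768-14904017, minus strand: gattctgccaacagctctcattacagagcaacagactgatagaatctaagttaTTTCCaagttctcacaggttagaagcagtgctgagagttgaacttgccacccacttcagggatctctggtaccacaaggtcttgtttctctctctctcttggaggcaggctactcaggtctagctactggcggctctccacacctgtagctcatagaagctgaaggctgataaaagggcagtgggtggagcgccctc
Ctla4, chr1:60908775-60909024, plus strand: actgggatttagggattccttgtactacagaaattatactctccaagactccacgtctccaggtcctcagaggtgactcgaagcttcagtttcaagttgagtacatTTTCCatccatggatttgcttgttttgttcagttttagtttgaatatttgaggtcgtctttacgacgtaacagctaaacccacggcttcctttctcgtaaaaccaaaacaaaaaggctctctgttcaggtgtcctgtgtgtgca
Ptms, chr6:124917947-124918196, minus strand: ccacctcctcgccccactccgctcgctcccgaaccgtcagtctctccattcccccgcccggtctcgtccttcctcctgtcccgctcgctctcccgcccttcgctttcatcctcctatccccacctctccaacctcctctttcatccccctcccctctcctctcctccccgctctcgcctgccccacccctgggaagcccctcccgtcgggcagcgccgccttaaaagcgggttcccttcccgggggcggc
Capg, chr6:72549397-72549646, plus strand: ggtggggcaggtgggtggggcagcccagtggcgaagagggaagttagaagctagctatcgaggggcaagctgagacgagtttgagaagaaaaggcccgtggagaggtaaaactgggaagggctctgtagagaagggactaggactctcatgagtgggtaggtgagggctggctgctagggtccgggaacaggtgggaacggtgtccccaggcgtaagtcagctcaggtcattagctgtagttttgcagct
The *Izumo1r* and *Ctla4* windows each held 1 GGAAA, while the *Ptms* and *Capg* windows held 0. TGANTCA was found 0 times in each of the 4 windows. Of 32851 mouse promoter windows of the same length, 55.6% held GGAAA and 6.75% held TGANTCA, so that most windows hold at least 1 GGAAA. The GC content was 50% before *Izumo1r*, 42.4% before *Ctla4*, 69.2% before *Ptms* and 57.6% before *Capg*. The *Capg* window and part of the *Izumo1r* window lie within the span of their genes, downstream of the outermost start. *Nrn1* is named only.

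The genes of the rule are described first, since they chose the cells. *Ctla4* was detected in 322 of the 420 control members and 231 of the 294 CD8-IFNγRKO members, at 339 and 330 CPM against 18.2 CPM in the other cells of either library. *Izumo1r* was detected in 262 and 161 members, at 223 and 189 CPM against 10.5 and 9.45 CPM. *Nrn1* was the rarest, in 43 and 32 members, at 62.0 and 52.9 CPM against 0.66 and 0.51 CPM. Most members were thus chosen by *Ctla4*, by *Izumo1r* or by both. *Ctla4* was the only gene of the rule detected in 145 control and 116 CD8-IFNγRKO members, *Izumo1r* in 91 and 58, and *Nrn1* in 0 and 3. *Izumo1r* and *Ctla4* without *Nrn1* were held by 141 and 88 cells, and all 3 genes by 23 and 13. Other genes of both small families were at or near 0. *Folr1* and *Folr2*, which encode folate receptors, were at 0 UMIs in all LN base cells, and the neuritin-like gene *Nrn1l* was at 0 UMIs in the members of both libraries.

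Many members lay at the limit of the rule. Exactly 2 summed UMIs were held by 188 control and 158 CD8-IFNγRKO members, or 44.8% and 53.7%, while 703 and 722 cells just outside the rule held 1. *Ptms* stood at 28.1 CPM just inside and 17.7 CPM just outside in the control library, and at 16.8 and 10.97 CPM in the CD8-IFNγRKO library. UMIs of at least 2 of the 3 genes were held by 184 (43.8%) and 117 (39.8%) members. On the side of *Ccl5*, 4 control and 3 CD8-IFNγRKO members had 2 UMIs of it, and 4 and 1 cells met the rule except for having 3.

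*S100a4* and *S100a6*, calcium-binding proteins that are raised in antigen-experienced T cells, had also been listed as markers of these cells, and the libraries differed in them. In the control library *S100a4* stood at 7.37 CPM in members and 15.1 CPM in other cells, a log2 ratio of -1.03 (95% interval -1.78 to -0.37). In the CD8-IFNγRKO library it stood at 27.7 and 5.24 CPM, a log2 ratio of 2.40 (1.89 to 2.89). *S100a6* stood at 39.9 against 44.3 CPM (log2 -0.15) in the control and at 80.01 against 20.001 CPM in the CD8-IFNγRKO library. Few cells made up these levels. *S100a4* UMIs were found in 7 control and 12 CD8-IFNγRKO members, and the 5 members with the most held 89.5% and 78.3% of them. Without cells of 3 or more *S100a6* UMIs, a comparison added after the values were seen, the log2 ratio of *S100a4* was 0.14 in the control and 2.37 in the CD8-IFNγRKO library. The other cells include those with 3 or more *Ccl5* UMIs, which the rule keeps from the members. Without those cells *S100a6* was at least 2-fold higher in the members of both libraries, with a log2 ratio of 1.499 in the control, while *S100a4* in the control was at 0.0083. Neither gene was higher in control members than in all other LN base cells, and the cells are named here by *Izumo1r*, *Nrn1* and *Ctla4* alone. Genes of naïve T cells went both ways and are given as a list further on. *Ccr7*, the chemokine receptor that brings T cells into LN, stood at 649 against 578 and 694 against 636 CPM, and *Tcf7*, a transcription factor of naïve and stem-like T cells, at 728 against 564 and 694 against 544 CPM.

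Genes that differed between members and the other LN base cells of the same library were then sought among 2698 genes with at least 50 UMIs in each library and at least 50 CPM in either group of cells of each library. A gene can pass that limit through the group in which it is high. At least 2-fold higher in the members of both libraries were 12 genes, or 0.445% of those compared, and 0 genes were at least 2-fold lower in both. Each library alone had 19 genes at least 2-fold higher, and 2 (control) and 0 (CD8-IFNγRKO) at least 2-fold lower. The median log2 ratio over all compared genes was 0.07 in both libraries, with the middle 50% of genes between -0.07 and 0.21 in the control and between -0.06 and 0.20 in the CD8-IFNγRKO library. The rule chose the cells from the same libraries, so these ratios describe the cells and test nothing.

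*Ptms* and *Capg* stood farthest from the other cells among these 2698 genes. *Ptms*, at chr6:124913675-124917946, encodes parathymosin, a small acidic nuclear protein. It stood at 79.5 CPM in control members and 9.80 CPM in other cells, a log2 ratio of 3.02 (2.75 to 3.29), and at 62.0 and 9.67 CPM in the CD8-IFNγRKO library, a log2 ratio of 2.68 (2.34 to 3.01). UMIs of *Ptms* were found in 104 of 420 and 53 of 294 members. *Capg*, at chr6:72538282-72562983, encodes a protein that caps the ends of actin filaments. It stood at 98.5 against 16.2 CPM (log2 2.60) in the control and 117 against 15.3 CPM (log2 2.93) in the CD8-IFNγRKO library, with UMIs in 112 and 76 members. Levels of both genes in the other cells were nearly equal between the libraries, and both were several-fold higher in the members of each.

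*Mxd4*, which encodes a partner of MAX that opposes MYC at its target genes, stood at 132 against 34.8 CPM (log2 1.92) and 123 against 45.7 CPM (log2 1.43). *Slamf6*, a homophilic receptor of the SLAM family that marks stem-like CD8 T cells, stood at 102 against 41.7 CPM (log2 1.29) and 108 against 47.3 CPM (log2 1.19). *H2-Oa*, a chain of the non-classical class II molecule that tempers peptide loading in B cells, had log2 ratios of 1.37 and 1.17. *Ift80*, which encodes a part of the transport machinery of cilia, had 1.31 and 1.07, and *Prr13* 1.02 and 1.15. *Bcl2a1b*, of a family of anti-apoptotic BCL2 relatives, had 1.20 and 1.29, although its reads cannot be parted safely from those of its near-identical copies. *Mxd4* and *Capg* were at least 2-fold higher in both libraries under each of the alternative settings tried. The calls of the other 5 genes were each lost under at least 1 of them. The weaker ratio went as low as 0.34 for *Ift80* and 0.80 for *Prr13* when cells were thinned to 1600 UMIs before the rule, 0.87 for *Slamf6* and 0.86 for *Bcl2a1b* without the 5% deepest cells, and 0.92 for *H2-Oa* with 10 CPM added.

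The remaining 4 called genes were *Hist1h2ae* (log2 2.17 and 2.16), *Hist1h1d* (2.34 and 1.99), *Hist1h2ap* (1.94 and 1.89) and *Hmgb2* (1.32 and 1.67), which encode histones and a chromatin protein of dividing cells. Histone genes are a family of near copies and their single values are uncertain. They rested on few cells, as the 5 members with the most UMIs held 55.7% to 76.2% of the UMIs of the 3 histone genes. None of these 4 calls was kept when cells were thinned before the rule, where *Hist1h1d* had 0.96 and -0.85, from 7 and 1 UMIs. The other 3 genes completed the 15 highest, each at least 2-fold higher in the control library only. They were *Rgs1* (1.09 and 0.95), which dampens signals from chemokine receptors, the orphan nuclear receptor gene *Nr4a2* (1.10 and 0.95), which is induced by TCR signals, and *Plp2* (1.04 and 0.93).

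**Figure D1:**
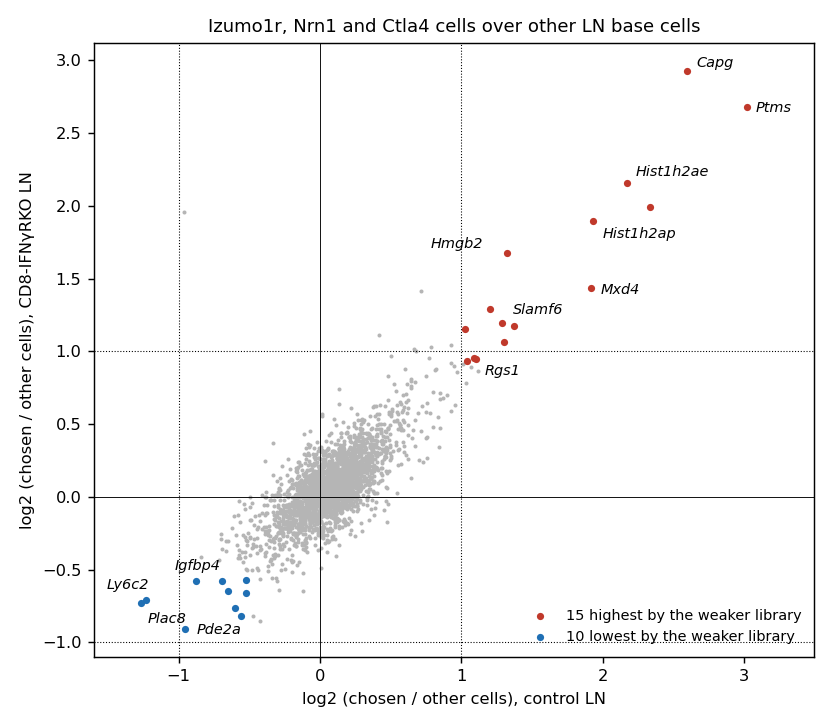
Log2 ratio of CPM in the members over the other LN base cells for 2698 genes, in the control library (x axis) and the CD8-IFNγRKO library (y axis), with dotted lines at 2-fold. The 15 highest (red) and 10 lowest genes (blue) by the weaker library are marked, and *Ptms* and *Capg* lie farthest to the upper right while no gene lies beyond 2-fold lower in both.

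Each of the 10 lowest genes was less than 2-fold lower in at least 1 library. *Ly6c2*, a surface protein of memory and effector CD8 T cells whose reads are hard to part from those of *Ly6c1*, stood at 331 against 778 CPM (log2 -1.23) and 459 against 748 CPM (log2 -0.70). Its level was higher in the cells with 3 or more *Ccl5* UMIs that only the other cells hold, and without them the weaker of its ratios was -0.33. *Plac8* had log2 ratios of -1.27 and -0.73, and the phosphodiesterase gene *Pde2a* -0.95 and -0.91. *Il7r*, the receptor for the survival cytokine IL-7, stood at 225 against 363 CPM (log2 -0.69) and 265 against 396 CPM (log2 -0.58), and *Igfbp4*, a growth factor binding protein of naïve CD8 T cells, at 330 against 607 CPM (log2 -0.88) and 300.2 against 448 CPM (log2 -0.58). *Ifngr1* was also among the lowest, at log2 -0.52 (-0.69 to -0.36) in the control and -0.66 (-0.91 to -0.42) in the CD8-IFNγRKO library. The other 4 were *Tgtp1* (-0.56 and -0.82), an interferon-induced GTPase gene with a near-identical copy, the heat shock gene *Hspa1b* (-0.60 and -0.76), the DNA repair gene *Apex1* (-0.65 and -0.64) and the kinase gene *Sgk1* (-0.53 and -0.57). When cells were thinned before the rule, the libraries ran in opposite directions for *Apex1* (-1.44 and 0.55) and *Hspa1b* (0.15 and -0.72), and the weaker ratio was -0.038 for *Pde2a* and -0.068 for *Tgtp1*.

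The members were not alike, and the gene that had chosen a cell went with its other transcripts. Control cells with *Izumo1r* only had *Ptms* at 8.84 CPM, near the 9.80 CPM of other cells, while it stood at 62.9 CPM in cells with *Ctla4* only, 93.5 CPM with both and 184 CPM in the 43 cells with any *Nrn1*. In the CD8-IFNγRKO library the same groups stood at 0, 34.2, 60.0 and 234 CPM. *Capg* gave the same order in the control, with 17.7, 91.2, 120 and 172 CPM, whereas in the CD8-IFNγRKO library cells with *Izumo1r* only (41.6 CPM) and *Ctla4* only (39.1 CPM) had overlapping intervals, both above the 15.3 CPM of other cells, and cells with *Nrn1* reached 354 CPM. *Igfbp4* ran the other way. It was as high in *Izumo1r*-only cells (723 and 565 CPM) as in other cells or higher (607 and 448 CPM), and lowest in cells with *Nrn1* (106 and 119 CPM).

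*Mxd4* and *Slamf6* were already higher than in other cells where *Izumo1r* alone had chosen the cell. *Mxd4* stood at 108 and 86.7 CPM in cells with *Izumo1r* only, and at 109 and 97.7 CPM in cells with *Ctla4* only, against 34.8 and 45.7 CPM in other cells, and reached 160 and 164 CPM in cells with both. *Slamf6* stood at 102 and 72.9 CPM in *Izumo1r*-only cells, and its interval in the CD8-IFNγRKO library included the 47.3 CPM of other cells. It reached 113 and 138 CPM in cells with both and 115 and 167 CPM in cells with *Nrn1*. *Hist1h2ap* was at 144 and 128 CPM in *Izumo1r*-only cells, near the 143 and 156 CPM of other cells, and at 1228 and 1061 CPM in all cells with *Nrn1* together. These did not share 1 level. In the CD8-IFNγRKO library 14 cells with *Nrn1* and *Ctla4* stood at 2161 CPM, from 181 UMIs of *Hist1h2ap*, while the 13 cells with all 3 genes stood at 236 CPM, below the 790 CPM of cells with *Izumo1r* and *Ctla4* without *Nrn1*. In the control library the 13 and 23 cells of the first 2 of these groups stood at 1682 and 1219 CPM. *Izumo1r*-only cells had median UMI totals of 4570 and 4396, and cells with *Nrn1* 5853 and 6306, so depth was higher where these levels were. *Ifngr1* in the cells with *Nrn1* was at 77.5 CPM in the control and 19.1 CPM in the CD8-IFNγRKO library, the latter from 4 UMIs.

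**Figure D2:**
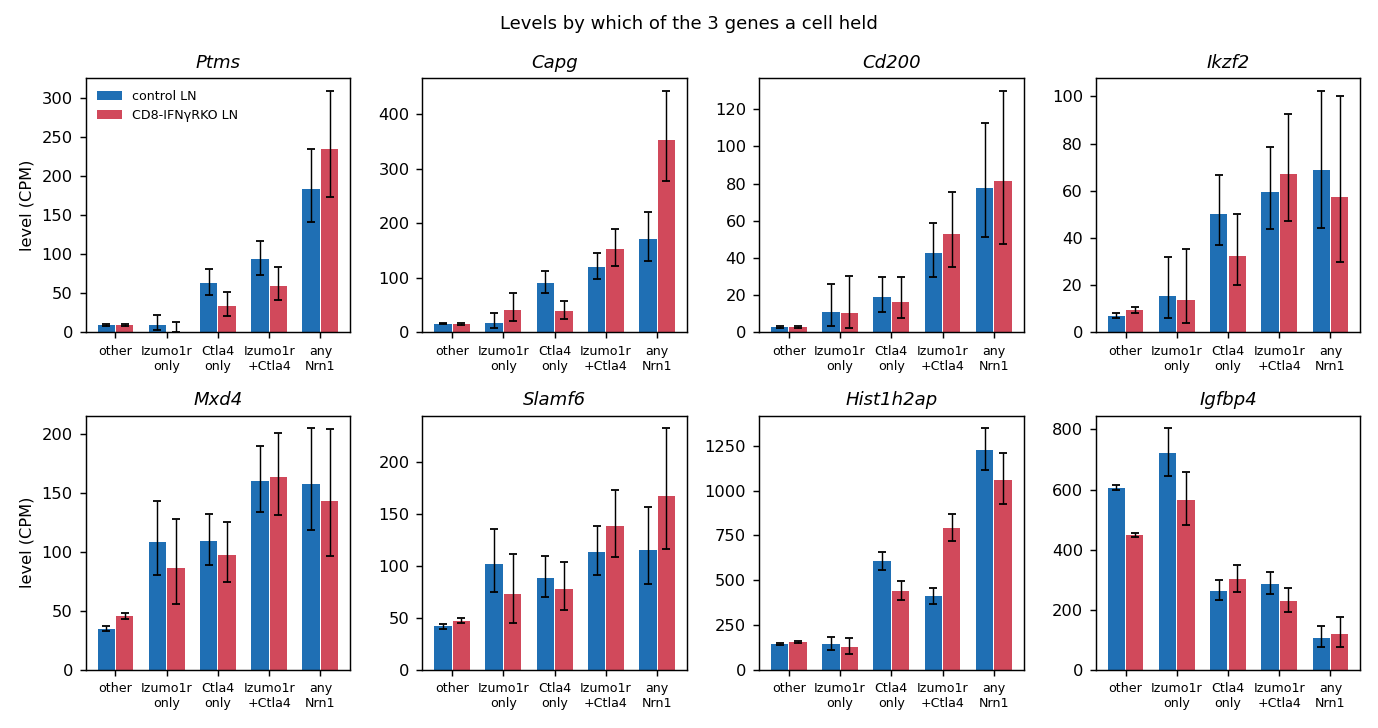
Levels (CPM, bars, with 95% Poisson intervals) of 8 genes in other LN base cells and in members grouped by which gene of the rule they held, for the control (blue) and CD8-IFNγRKO (red) libraries. *Ptms* and *Hist1h2ap* are near the other cells with *Izumo1r* only, as is *Capg* in the control library, and all 3 are highest in the pooled cells with *Nrn1*, *Igfbp4* is the reverse, and *Mxd4* is raised with any of the 3 genes.

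The same genes were graded along the summed UMIs of the 3 genes, also among cells outside the rule. *Ptms* stood at 7.51, 17.7, 28.1, 62.4 and 141 CPM in control cells with 0, 1, 2, 3 and at least 4 summed UMIs, and at 9.396, 10.97, 16.8, 44.5 and 133 CPM in the CD8-IFNγRKO library. Most *Ptms* UMIs of the members thus came from the 146 and 79 cells with at least 4. *Igfbp4* went along the same steps from 656 to 174 CPM and from 479 to 138 CPM, and *Il7r* from 360 to 178 CPM and from 396 to 180 CPM. *Ifngr1* went from 173 to 117 CPM in the control and from 133 to 57.7 CPM in the CD8-IFNγRKO library. *Ccr7* had no such grade, at 597 and 722 CPM at the ends of the control series and 655 and 605 CPM at those of the other. The median UMI total went from 3918 to 6002 and from 3755.5 to 6533 over the same steps.

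To set cells of unlike depth side by side, each cell was thinned to 1600 UMIs, which left out 2 control members, 0 CD8-IFNγRKO members and 235 and 41 of the other cells. The members were those chosen at full depth. *Capg* was then found in 9.81% of control members and 2.12% of other cells, and in 9.86% and 2.07% in the CD8-IFNγRKO library. *Ptms* was found in 9.57% against 1.60% and 6.12% against 1.39%, *Mxd4* in 17.0% against 4.86% and 14.97% against 6.36%, and *Ikzf2* in 6.94% against 1.03% and 6.80% against 1.54%. When cells were instead thinned before the rule was applied, *Ptms* had log2 ratios of 3.07 in the control and 1.305 in the CD8-IFNγRKO library, the latter from 3 UMIs in the members. Unthinned, UMIs of *Capg* were in 26.7% and 25.9% of members and 5.07% and 5.201% of other cells.

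**Figure D3:**
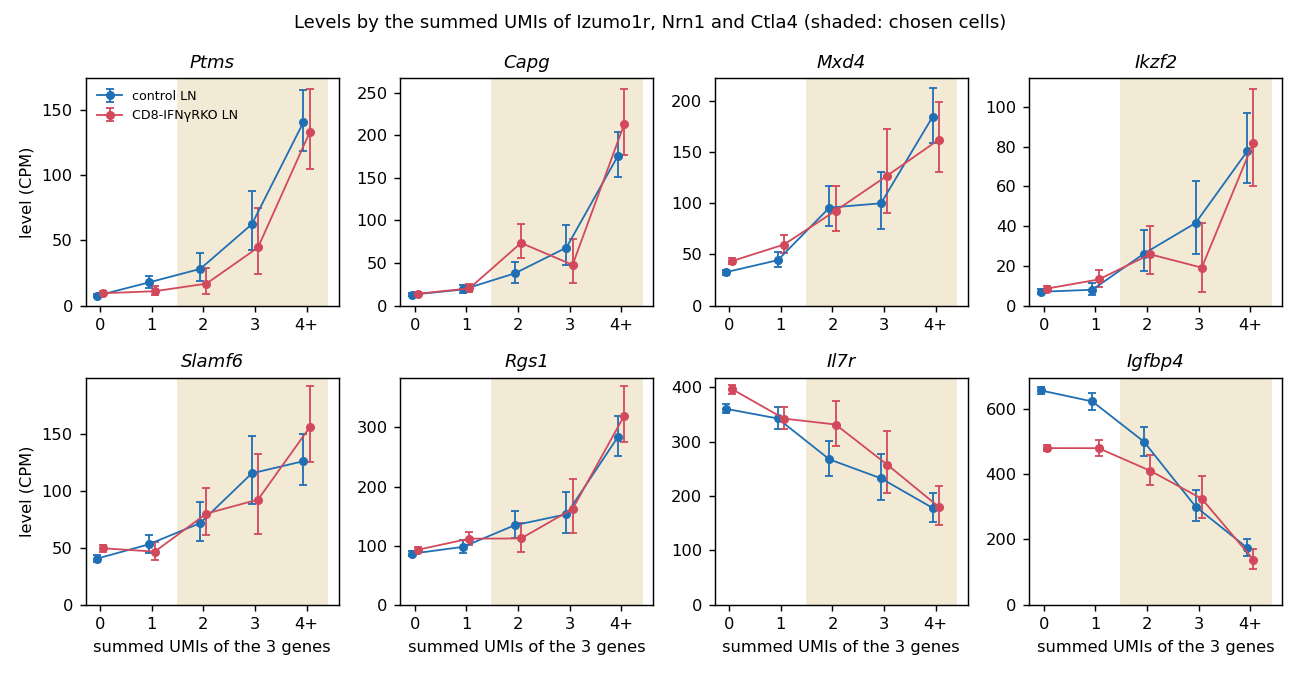
Levels (CPM, points, with 95% Poisson intervals) of 8 genes in LN base cells with fewer than 3 *Ccl5* UMIs, by their summed UMIs of *Izumo1r*, *Nrn1* and *Ctla4* (x axis), in the control (blue) and CD8-IFNγRKO (red) libraries, with the members shaded. *Ptms* is highest at 4 or more in both libraries (141 and 133 CPM), and *Igfbp4* and *Il7r* are lowest there.

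Gene lists were read over genes with at least 20 UMIs in each library, of which 10839 were measured and 2.66% were at least 2-fold higher in the members of both libraries and 0.627% at least 2-fold lower. The median log2 ratio over those genes was 0.09 in both. Of 10 inhibitory receptor genes measured, 3 were at least 2-fold higher and 0 lower, and the list's median log2 ratio was 0.52 in the control and 0.81 in the CD8-IFNγRKO library. The intervals of both libraries lay above 0 for 5 of these genes and below 0 for 1. *Lag3*, a receptor for class II molecules, had the widest ratio. It stood at 26.8 against 0.73 CPM (log2 5.199, 4.46 to 5.996) with UMIs in 43 control members, and at 14.4 against 0.44 CPM (log2 5.04, 3.98 to 6.17) with UMIs in 16 CD8-IFNγRKO members. *Pdcd1*, which encodes PD-1, had log2 ratios of 2.65 and 2.58, but from 10 and 8 UMIs only, and its ligand gene *Pdcd1lg2* had 1.27 and 2.15. *Cd160* (0.96 and 1.18) was past 2-fold in 1 library, and the intervals of *Tigit* (0.32 and 0.62) included 0 in both. With 10 CPM added 1 of the 3 calls was kept, that of *Lag3*. *Pdcd1* lost its call when cells were thinned before the rule and without the 5% deepest cells, and *Pdcd1lg2* lost its call with other cells weighted to the members' depth. In the list 1 gene was at least 2-fold lower in both libraries with at least 3 summed UMIs and with other cells so weighted. The same count was found without the 5% deepest cells, without cells with UMIs of other cell types and under some further settings.

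*Lag3* and *Ptms* are neighbours, with 1240 bases between *Lag3* (chr6:124904359-124912434) and *Ptms*. Of the members with a *Lag3* UMI, 29 of 43 (67.4%) in the control and 14 of 16 (87.5%) in the CD8-IFNγRKO library also had a *Ptms* UMI, whereas 27.9% and 26.4% of the members with *Ptms* had *Lag3*. *Ptms* was also found in 24 of the 43 (55.8%) and 21 of the 32 (65.6%) members with *Nrn1*. Whether reads were shared between the neighbouring genes was not tested.

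Costimulatory receptors and ligands were the list with the most called genes outside the cell cycle, together with the regulatory T cell markers described later. Of 15 measured, 7 were at least 2-fold higher and 0 lower, with a median log2 ratio of 0.91 and 0.97. *Tnfsf11*, which encodes the cytokine RANKL, stood at 14.0 against 1.64 CPM (log2 3.09) and 11.4 against 2.42 CPM (log2 2.24). *Tnfrsf4* (OX40) had log2 ratios of 2.66 and 3.35 from UMIs in 10 and 14 members, *Tnfrsf9* (4-1BB) 1.56 and 1.72, and the SLAM family gene *Slamf1* 1.12 and 1.18. *Cd81* (1.98 and 1.93) and *Cd40lg* (1.00 and 2.48) were low, with UMIs in at most 14 members of a library, and *Slamf6* was the seventh. *Icos*, a relative of CD28, gave 0.51 and 0.97 and *Tnfsf8* 0.91 and 0.63, below 2-fold. The receptor gene *Tnfrsf18* (GITR), which is common in regulatory T cells, gave 0.08 and 0.05 with intervals that included 0. Without the cells that had any UMI of *Cd4*, *Foxp3*, *Cd79a*, *Cd74* or *Lyz2*, 3 of the 7 remained at least 2-fold higher in both libraries, namely *Slamf6*, *Tnfsf11* and *Cd40lg*. Also 3 of the 7 were kept when cells were thinned before the rule, 3 without the 5% deepest cells and 1 (*Slamf6*) with 10 CPM added.

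**Figure D4:**
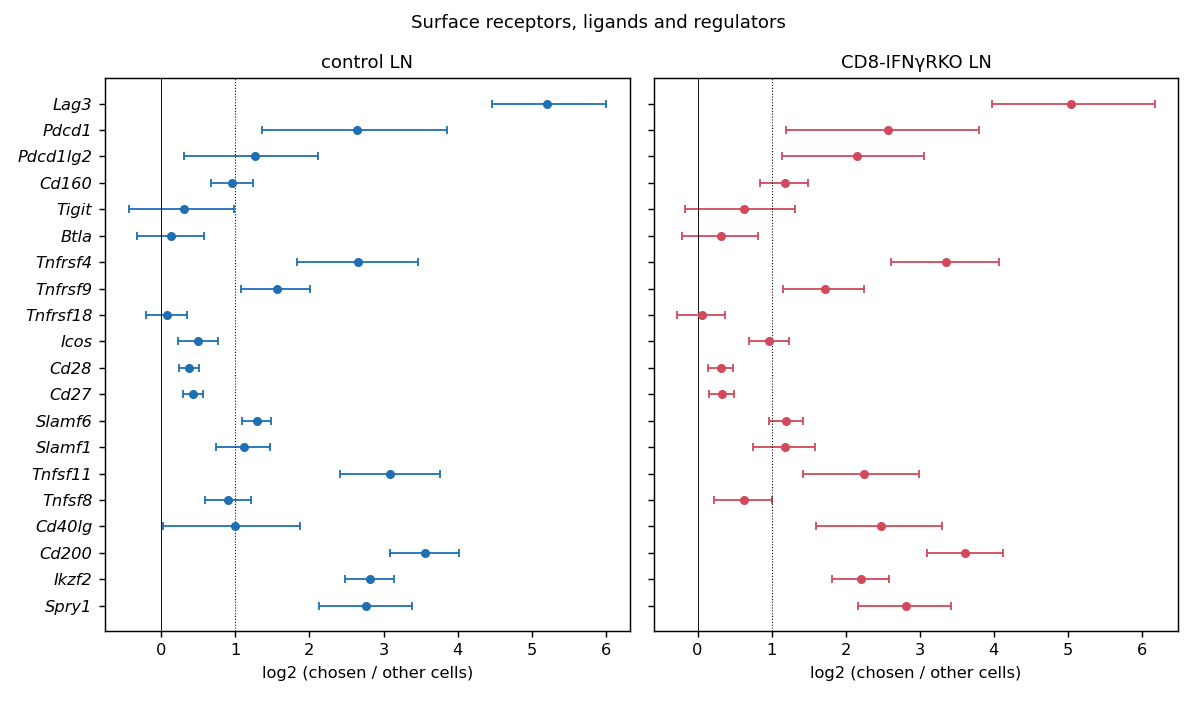
Log2 ratio of CPM in members over other LN base cells (points, with 95% exact conditional intervals) for 20 genes of receptors, ligands and regulators in the control (left) and CD8-IFNγRKO (right) library, with a dotted line at 2-fold. *Lag3* (5.199 and 5.04) and *Cd200* (3.55 and 3.62) lie farthest to the right, and *Tnfrsf18* lies at 0 within its interval in both libraries.

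Of 17 genes of anergy and tolerance measured, 2 were at least 2-fold higher and 0 lower, with a median log2 ratio of 0.36 and 0.30. They were *Ikzf2*, at chr1:69531207-69687351, which encodes the transcription factor Helios of regulatory and chronically stimulated T cells, and *Cd200*, a ligand of an inhibitory receptor on myeloid cells. *Ikzf2* stood at 49.6 against 7.07 CPM (log2 2.81, 2.48 to 3.14) and 43.9 against 9.49 CPM (log2 2.21, 1.82 to 2.59), with UMIs in 75 and 44 members. *Cd200* stood at 33.0 against 2.81 CPM (log2 3.55) and 35.5 against 2.89 CPM (log2 3.62), in 58 and 38 members. *Tox*, a transcription factor of exhausted T cells, was at 87.3 against 59.9 CPM (log2 0.54) and 102 against 65.5 CPM (log2 0.63), below 2-fold. The genes that TCR signals induce early went unlike ways. *Nr4a1* (0.00 and -0.07) and *Egr2* (0.01 and 0.41) had intervals that included 0 in both libraries. *Nr4a2*, given above, had 1.10 (0.87 to 1.33) and 0.95 (0.65 to 1.23), and *Nr4a3* had 0.39 (-0.0054 to 0.77) and 0.82 (0.40 to 1.22). The gene *Rnf128*, which encodes an E3 ligase of anergic CD4 T cells, was at 0 UMIs in the members. Calls of *Ikzf2* and *Cd200* were kept when cells with UMIs of other cell types were left out, with log2 ratios of 2.49 and 1.81 for *Ikzf2* and 3.53 and 3.39 for *Cd200*.

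Feedback regulators of TCR signaling numbered 18 measured genes, of which 1 was at least 2-fold higher and 0 lower, with a median log2 ratio of 0.27 and 0.29. The 1 gene was *Spry1*, an inhibitor of RAS signaling, at 14.3 against 2.11 CPM (log2 2.76) and 19.3 against 2.75 CPM (log2 2.81). *Cd5*, a surface protein whose level follows the strength of self-recognition, was at log2 0.29 (0.15 to 0.43) and 0.54 (0.38 to 0.70). The immediate early gene *Egr1* was lower in control members (log2 -0.33) and higher in CD8-IFNγRKO members (0.37). Of 18 genes of the TCR complex and its proximal signaling, 0 were past 2-fold in either direction, with medians of 0.14 and 0.10, and *Cd8a* stood at 989 against 729 CPM and 944 against 724 CPM.

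Among 19 transcription factor genes, 4 were at least 2-fold higher and 0 lower, with medians of 0.41 and 0.43. *Myb*, which sustains stem-like CD8 T cells, stood at 35.7 against 12.1 CPM (log2 1.57) and 55.9 against 14.0 CPM (log2 1.996), with UMIs in 70 and 55 members. *Bhlhe40* stood at 25.2 against 9.51 CPM (log2 1.41) and 31.9 against 6.63 CPM (log2 2.27). *Maf* (2.19 and 1.95) and *Irf4* (1.02 and 1.70), both known from activated T cells, were low, with UMIs in at most 20 members of a library. *Id3*, an inhibitor of E proteins that is kept in stem-like cells, was at log2 0.57 and 0.65. With 10 CPM added 1 of the 4 calls was kept, that of *Myb*.

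Naïve T cell genes showed no shift past 2-fold in the members as chosen, with 0 of 14 called in either direction and medians of -0.04 and 0.03. With at least 3 summed UMIs, and also with UMIs of at least 2 of the 3 genes, 1 was at least 2-fold lower and 0 higher. *Lef1* stood at 404 against 399 CPM and 462 against 454 CPM, while *Klf2*, which maintains circulation, was at log2 -0.57 and -0.36 and *Dapl1* at 0.59 and 0.38. Of 15 memory-like genes measured, 1 was at least 2-fold higher and 0 lower, with medians of -0.10 and -0.01. It was *Cd44*, an adhesion receptor of antigen-experienced T cells, at 44.6 against 18.1 CPM (log2 1.30) and 34.3 against 13.5 CPM (log2 1.34). It was no longer past 2-fold in both libraries without cells with UMIs of other cell types, with 10 CPM added, or with other cells weighted to the members' depth, where 4 memory-like genes were at least 2-fold lower. *Eomes* was at log2 -0.89 in the control and 0.21 in the CD8-IFNγRKO library. Effector products had 0 of 10 measured genes at least 2-fold higher and 1 lower, the protease gene *Gzmb*, from 3 and 1 UMIs in the members, and medians of -0.40 and 0.35. *Ifng* stood at 13.2 against 11.9 CPM in the control and 27.7 against 9.27 CPM in the CD8-IFNγRKO library, with 5 members holding 61.8% and 63.0% of its UMIs. *Xcl1*, the list's most abundant gene, was at least 2-fold higher in both libraries with at least 3 summed UMIs and with at least 2 genes. So it was with no limit on *Ccl5* and with the mean of single-cell CPM. *Ifng* and *Xcl1* were called without cells of 3 or more *Ccl5* UMIs, and *Ifng* and *Ccl4* when cells were thinned before the rule.

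Of 14 S100, annexin and galectin genes measured, 0 were at least 2-fold higher in both libraries and 1 was lower, *Lgals3*, from 1 UMI in the members of each library, and the medians were 0.31 and 0.39. *Lgals1*, a galectin gene of activated T cells, was at log2 0.83 and 0.55. Migration and adhesion genes had 3 of 17 at least 2-fold higher and 0 lower, with medians of 0.36 and 0.37. These were *Cd44* and the chemokine receptor genes *Ccr4* (8 and 6 UMIs) and *Ccr8* (5 and 13 UMIs). When cells were thinned before the rule 1 of the 3 calls was kept, that of *Cd44*, and with 10 CPM added 0 were kept. *Itgae*, which encodes the integrin CD103, was abundant and stood at 152 against 79.8 CPM (log2 0.93) and 153 against 80.9 CPM (log2 0.92), just below 2-fold in both. Of 7 follicular helper genes measured, 2 were at least 2-fold higher, *Slamf6* and *Pou2af1*, and 0 lower, with medians of 0.91 and 0.83. *Pou2af1* lost its call with UMIs of at least 2 of the 3 genes and with other cells weighted to the members' depth. The call was also lost with 10 CPM added and without cells of 3 or more UMIs of 8 cell cycle genes.

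Cell cycle genes had median log2 ratios of 2.31 in the control and 2.64 in the CD8-IFNγRKO library, and 11 of 17 were at least 2-fold higher and 0 lower. *Mki67*, which marks cells in cycle, stood at 44.6 against 4.15 CPM and 60.8 against 4.03 CPM. A few deep cells held nearly all *Mki67* transcripts of the members, while *Hmgb2* of the same list was found in 257 control and 160 CD8-IFNγRKO members. Cells with at least 3 summed UMIs of *Mki67*, *Top2a*, *Birc5*, *Cdk1*, *Ccnb1*, *Ccnb2*, *Ube2c* and *Rrm2* numbered 18 (4.29%, 2.56 to 6.69) of the control members and 13 (4.42%, 2.38 to 7.44) of the CD8-IFNγRKO members. Among other cells they were 20 (0.32%) and 16 (0.25%). The members thus held 47.4% and 44.8% of all such LN base cells. Their median UMI totals were 14254.5 and 13046, and they held 96.5% and 94.1% of the members' *Mki67* UMIs and 11.5% and 10.5% of the members' UMIs overall. As *Mki67* was among the genes that chose these cells, their high share of it follows in part from the choice.

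Without these cells, an alternative added after the values were seen, 8 genes were at least 2-fold higher in both libraries, 6 of which were among the 12. *Hmgb2* and *Hist1h2ap*, which did not choose the cells left out, then had log2 ratios of 0.61 and 0.47 and of 0.89 and 0.49. The genes that chose those cells, from *Mki67* to *Rrm2*, all belong to the cell cycle list. A loss of their own calls therefore followed from the choice, and 2 of the 11 cell cycle calls were kept. The same number of those 11 was kept when every cell was thinned before the rule, and 3 were kept without the 5% deepest cells. *Capg* kept 2.56 and 2.76, *Mxd4* 1.96 and 1.47 and *Slamf6* 1.27 and 1.10. *Ptms* kept log2 ratios of 3.02 and 2.36 but was no longer counted, since its 46.4 CPM in the CD8-IFNγRKO members fell below the minimum of 50 CPM. The part of doublets in the deepest of these cells was not tested.

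Markers of other T cells that a CD8 gate could hold were examined as well. Of 9 regulatory T cell genes measured, 7 were at least 2-fold higher and 0 lower, with medians of 2.60 and 2.21, and the list's summed level was 397 against 154 CPM in the control and 402 against 163 CPM in the CD8-IFNγRKO library, with *Itgae* the most abundant gene. The intervals of both libraries lay above 0 for 6 of the 9, so not each of the 7 calls had such intervals. *Capg*, *Ikzf2* and *Tnfrsf4*, described above, were 3 of the 7. With 10 CPM added 2 of the 7 calls were kept (*Ikzf2* and *Capg*), and 4 were kept when cells were thinned before the rule (*Foxp3*, *Ikzf2*, *Capg* and *Tnfrsf4*). The defining gene *Foxp3*, the transcription factor of regulatory T cells, was found in 8 (1.90%) and 3 (1.02%) members, and in 0.45% of the other cells of each library. *Il2ra*, the high-affinity IL-2 receptor chain, was found in 11 and 3 members. All *Foxp3* UMIs of the members lay in cells with at least 4 summed UMIs of the rule's genes. *Cd4* was found in 37 (8.81%) control and 42 (14.3%) CD8-IFNγRKO members, against 3.96% and 6.997% of other cells, at median UMI totals of 5122 and 4796.5 against 4006.5 and 3840. Of 2 CD4 T cell genes measured, 1 was at least 2-fold higher (*Cd40lg*), and the list summed to 22.1 against 12.1 CPM and 39.1 against 19.9 CPM, with *Cd4* the most abundant. The *Cd40lg* call was lost when cells were thinned before the rule, without the 5% deepest cells and with 10 CPM added. It was also lost with the mean of single-cell CPM and without the cycling cells. The same held with CPM set without TCR, heat shock, ribosomal protein and mitochondrial genes.

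Any UMI of *Cd4*, *Foxp3*, *Cd79a*, *Cd74* or *Lyz2* was found in 76 (18.1%) and 58 (19.7%) members and in 5.84% and 8.73% of other cells. Without these cells *Ptms* had log2 ratios of 2.88 and 2.40, *Capg* 2.31 and 1.997, *Mxd4* 1.76 and 1.32 and *Lag3* 4.97 and 4.46, and 3 of the 7 regulatory T cell genes kept their call. The call of *Foxp3*, among those 7, could not be kept, since every cell with a UMI of it was left out. Without these cells the calls of *Ccr4*, *Ccr8*, *Cd44* and *Irf4* in the lists were lost, so that 0 of 3 calls of migration and adhesion genes, 0 of 1 of memory-like genes and 3 of 4 of transcription factor genes were kept. The part of doublets was not tested.

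Markers of other lineages were read as lists. Of 12 B cell genes, 4 were measured and 0 called, *H2-Aa*, *Ebf1* and *Fcmr* were at 0 UMIs in the members of both libraries, and the list summed to 294 against 250 CPM and 285 against 271 CPM, nearly all of it *Ighm*. *Cd74*, the invariant chain of class II molecules, stood at 27.5 against 6.63 CPM (log2 2.05, 1.64 to 2.46) in the control, with UMIs in 38 members, and at 18.05 against 13.3 CPM (log2 0.44, -0.14 to 0.98) in the CD8-IFNγRKO library, with UMIs in 17. It was at least 2-fold higher in both libraries with at least 3 summed UMIs, with UMIs of at least 2 of the 3 genes, and when cells were thinned before the rule. Of 12 myeloid and dendritic cell genes, 3 were measured and 0 called. *Lyz2*, *Fcer1g*, *Flt3*, *Siglech* and *Adgre1* were at 0, and the sums of 235 against 189 CPM and 219 against 177 CPM were mostly *Ctss* and *Cst3*. Of 3 NK cell genes measured, 0 were at least 2-fold higher and 1 lower, *Klre1*, from 0 and 1 UMIs in the members, and *Ncr1* was at 0 in all base cells. The list summed to 18.6 against 39.2 CPM and 46.9 against 41.8 CPM, with *Eomes* the most abundant. The γδ T cell genes summed to 1 UMI in the control and 4 UMIs in the CD8-IFNγRKO members (0.39 against 2.33 and 2.41 against 2.45 CPM), and 0 of 1 measured was called. Innate-like T cell genes summed to 48.5 against 25.6 CPM and 58.4 against 25.7 CPM, nearly all *Cd160*, while *Zbtb16* was at 0 and 0 of 1 measured was called.

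The members of both genotypes were then compared, to ask what the loss of the IFNγ receptor went with in these cells. Of 2921 genes with at least 100 UMIs over both libraries and 50 CPM in either, 20 (0.685%) were at least 1.5-fold higher and 7 (0.24%) at least 1.5-fold lower in CD8-IFNγRKO members. In the other base cells, 4 (0.137%) and 8 (0.274%) were. The members are fewer and their ratios more scattered, with the middle 50% of log2 ratios spanning 0.245 in members and 0.120 in other cells, so the numbers of calls in the 2 groups of cells are not on the same footing. With 1 library per genotype, mouse, pool and genotype cannot be told apart.

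The 5 highest genes in CD8-IFNγRKO members were *Gm21887* (log2 2.58, and 1.80 in other cells), *Ube2c* (2.19), *S100a6* (1.00), *Cenpa* (0.96) and *Anxa2* (0.87). *Ube2c*, a ubiquitin-conjugating enzyme of mitosis, rested on 12 CD8-IFNγRKO members, 5 of which held 93.2% of its UMIs, and without the cycling cells its log2 ratio was -0.061. *Ube2c* was among the genes that chose the cycling cells, so each cell left held fewer than 3 UMIs of it. *S100a6* ran against the other cells, in which it was lower in the CD8-IFNγRKO library (-1.15), and 5 members held 81.2% of its UMIs there. *S100a6* and *Anxa2* were lower in CD8-IFNγRKO when cells were thinned before the rule was applied (-0.79 and -0.62). The 5 lowest were *Gbp6* (-0.83, and -0.65 in other cells) and *Tgtp1* (-0.75 and -0.49), both GTPase genes induced by IFNγ, *Hist1h1b* (-0.81 and -0.54), the heme oxygenase gene *Hmox2* (-0.71 and -0.06) and *Pnp* (-0.62 and -0.09), an enzyme of purine salvage. *Hist1h1b* reversed to 0.80 when cells were thinned, and *Tgtp1* was then at -0.079. *Pnp* was at -0.010 among members with UMIs of at least 2 of the 3 genes. Neither was past 1.5-fold there.

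*Ifngr1* was 130 CPM in control and 88.4 CPM in CD8-IFNγRKO members, a log2 ratio of -0.55 (-0.84 to -0.27), and -0.42 (-0.48 to -0.36) in other cells. *Ifngr2*, the second chain of the receptor, stood at 26.8 and 30.1 CPM (log2 0.17, -0.39 to 0.71). Of 9 genes of the IFNγ receptor and its signaling, 0 were past 2-fold between members and other cells, with medians of 0.01 and -0.04, and the median log2 ratio between genotypes was 0.04 in members and -0.15 in other cells. The kinase gene *Jak1* was level, at 472 and 486 CPM.

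Genes that interferons induce were measured in full, all 32 of the list. Between members and other cells 0 were past 2-fold in either direction, with medians of 0.08 and 0.17. Between genotypes the median log2 ratio was -0.19 in members and -0.19 in other cells, against 0.03 in each over 8890 genes with at least 20 UMIs in the members of both libraries together, and 23 of the 32 were lower in CD8-IFNγRKO members and 27 of 32 in the other cells. *Gbp2*, a guanylate-binding protein, gave -0.52 and -0.80, the immunoproteasome gene *Psmb9* -0.33 and -0.35 and the peptide transporter gene *Tap1* -0.31 and -0.33. *Irf1*, a transcription factor that IFNγ induces, was lower in members (221 and 146 CPM, log2 -0.60, -0.83 to -0.38) and nearly level in other cells (-0.08).

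Some genes of the list ran the other way in the members. *Ifit3* (0.76), *Bst2* (0.52) and *Isg15* (0.49), which type I interferon also induces, had intervals above 0 in members and ratios of 0.16, 0.03 and -0.12 in other cells. *Ly6a*, which encodes SCA-1, was at 41.1 CPM in control and 67.4 CPM in CD8-IFNγRKO members (log2 0.71), against 80.2 and 17.3 CPM (log2 -2.21) in other cells. Without cells of 3 or more *S100a6* UMIs, *Ly6a* was lower in CD8-IFNγRKO members too (-0.52). The difference between members and other cells in these ratios was not tested, since each rests on 1 library per genotype.

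**Figure D5:**
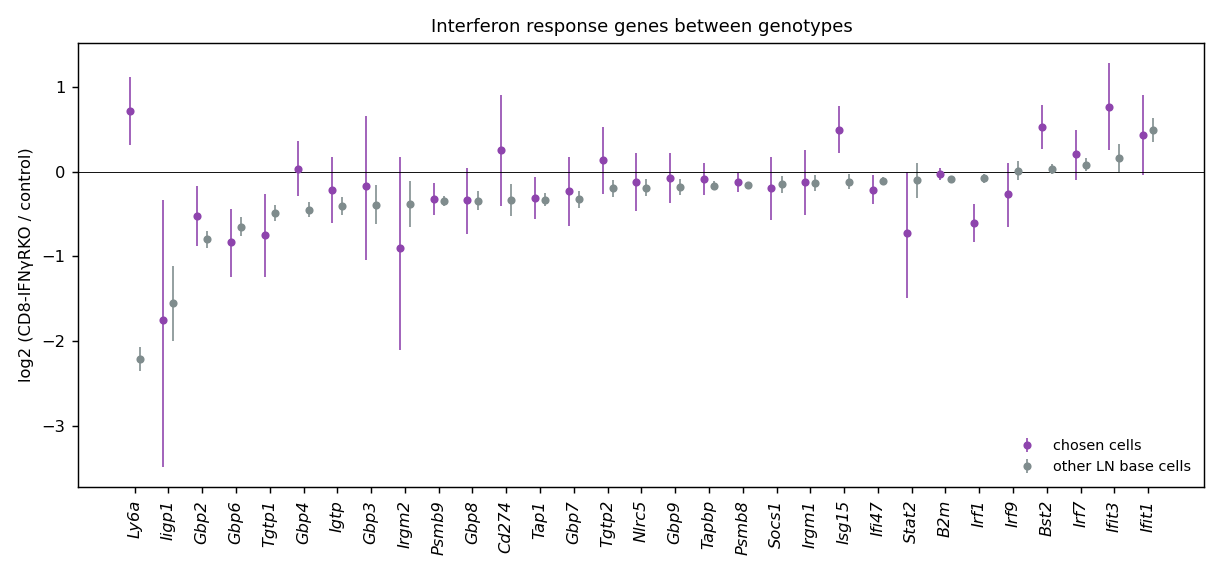
Log2 ratio of CPM in CD8-IFNγRKO over control (points, with 95% exact conditional intervals) for genes of the interferon response list, in members (purple) and other LN base cells (grey), ordered by the ratio in other cells. Most genes lie below 0 in both groups of cells (median over the list -0.19 in each), and *Ly6a*, *Isg15*, *Ifit3* and *Bst2* lie above 0 in the members.

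TCR gene segments were read from the gene counts to see whether the members shared a receptor. A *Trbv* segment was counted in 417 control and 292 CD8-IFNγRKO members and a *Trav* segment in 364 and 252. Shares are given of the cells with a counted segment of the same chain. *Trbv13-2* was the most frequent *Trbv* segment in control members, at 10.55% against 9.17% in other cells. In CD8-IFNγRKO members it was *Trbv1*, at 7.88% against 5.18%. *Trav12-2* was the most frequent *Trav* segment in both, at 5.77% against 4.57% and 5.16% against 4.89%. Of 21 *Trbv* and 75 *Trav* segments, the exact interval of the members' share lay above the share in other cells for *Trbv14* (CD8-IFNγRKO) and *Trav2* (control), and below it for *Trbv16* and *Trbv29* (CD8-IFNγRKO) and *Trav13-1* (control). None of these did so in both libraries.

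In the tumor libraries the genes of the members had other levels, and the comparison is given as levels side by side. Over all tumor base cells *Lag3* stood at 892 CPM in the control and 507 CPM in the CD8-IFNγRKO library, *Ptms* at 431 and 270 CPM, and *Capg* at 442 and 411 CPM, each above the LN members. *Izumo1r* was low there, at 4.54 and 12.3 CPM, as were *Slamf6* (5.41 and 8.05 CPM) and *Itgae* (0.61 and 0.43 CPM). *Ikzf2* stood at 39.3 and 39.0 CPM, near the 49.6 and 43.9 CPM of the LN members. *Nrn1* stood at 70.1 and 22.9 CPM, and *S100a6*, which few LN members held, at 3092 and 2172 CPM.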

How the data were processed

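Single-cell RNA sequencing of sorted CD8+ Tomato+ cells was read from 4 libraries, of draining LN and tumor of control and CD8-IFNγRKO mice. The authors mapped reads with Cell Ranger 6.0.0 to mm10 and deposited raw UMI counts for every gene in every barcode, not normalized. A step against doublets is not given in the sources used here. The tumor TCR contigs were not used here.

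The analysis used NumPy 2.4.6 and SciPy 1.17.1 with pandas 2.3.3 in Python 3.11.15, and matplotlib 3.10.9 for plots. No doublet was removed. UMIs were summed over the cells of a group and divided by the group's total (CPM). Ratios had no pseudocount and exact conditional binomial 95% intervals, levels exact Poisson and shares Clopper-Pearson ones. PCR duplicates were collapsed by UMI. TCR segments, mitochondrial, ribosomal protein and Y-linked genes and the X-inactivation transcripts were left out of the counts of genes. The 4 genes of the rule were left out of the comparison of members with other cells. *Izumo1r*, *Nrn1* and *Ctla4* were among the genes compared between genotypes. No test was run, as each group was 1 library. The code was tested on simulated data.

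Named genes were *Izumo1r*, *Nrn1*, *Ctla4*, *Ccl5*, *S100a4*, *S100a6*, *Ifngr1* and *Ifngr2*, the 15 highest and 10 lowest by the weaker library, the 5 highest and 5 lowest between genotypes, and genes of the lists. The members and the lists were chosen with earlier results of these data known. Gene positions and promoters were taken from RefSeq (GRCm38.p6), in which 301 of 309 named and listed genes matched by symbol. A total of 16 alternatives were tried, 2 of them added after the values were seen. Some genes of the lists enter the counts and medians but are not reported here by name.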

Additional observations from a re-analysis of the deposited data

Results flagged for a closer look

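Several values pointed in opposite directions in the 2 LN libraries, each with 1 library a side, so that the differences were not tested. *S100a4* in members over other LN base cells had a log2 ratio of -1.03 in the control and 2.40 in the CD8-IFNγRKO library, from UMIs in 7 and 12 members. *Ly6a* had -0.96 and 1.96, *Egr1* -0.33 and 0.37, and *Tuba1b*, a tubulin gene, -0.16 and 0.14.

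Cells that met the rule were also found among cells that the comparisons did not use. Among LN barcodes that lacked a UMI of *Cd2*, *Cd8a* or *Cd8b1*, 155 of 6203 (2.50%) in the control and 138 of 4460 (3.09%) in the CD8-IFNγRKO library met the rest of the rule. *Ptms* stood at 72.3 and 63.1 CPM and *Capg* at 99.0 and 81.9 CPM in them. Among tumor base cells, 238 of 7106 (3.35%) in the control and 1092 of 8638 (12.64%) in the CD8-IFNγRKO library met the rule. *Ccl5*, which the rule limits, stood at 8189 and 2764 CPM over tumor base cells, and their median UMI totals were 6306 and 9399.5. The cause of the difference between the tumor shares was not tested.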

How the results depend on the processing

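No paired analysis was possible because each group is 1 library. Of 667 values of named genes under alternatives, 524 moved by less than their counting interval, 133 moved by more and 10 changed sign from a value past the fold used. Values within that fold also took either sign. *S100a6* in control members over other cells, -0.15 as reported, ranged from -0.62 to 1.499, and *Ifngr2*, -0.18 and -0.28 as reported, reached 0.13 in the control and 0.40 in the CD8-IFNγRKO library. The share of members was higher in the control than in the CD8-IFNγRKO library under every alternative run. It was 3.48% and 2.01% with at least 3 summed UMIs, 2.76% and 1.73% with UMIs of at least 2 genes, 1.95% and 1.07% when cells were thinned to 1600 UMIs before the rule, 5.57% and 3.69% without the 5% deepest cells, 5.53% and 3.85% without cells with UMIs of other cell types, and 4.47% and 3.85% without the filter on *Cd2*, *Cd8a* and *Cd8b1*. Genes at least 2-fold higher in both libraries, 12 as reported, were 33 with at least 3 summed UMIs, 37 with at least 2 genes, 34 when thinned (4 of them shared with the 12), 6 without the deepest cells (4 shared), 23 with CPM set without TCR, heat shock, ribosomal protein and mitochondrial genes and 288 with only 20 UMIs required. Genes at least 2-fold lower, 0 as reported, were 4, 2 and 3 in the first 3 of these settings, 1 without the deepest cells, 68 with only 20 UMIs required and 2 with other cells weighted to the members' depth. Genes at least 1.5-fold higher in CD8-IFNγRKO members, 20 as reported, were 47 with at least 3 summed UMIs, 55 with at least 2 genes, 8 when thinned, 43 without the deepest cells, 50 with the other CPM, 9 with 10 CPM added, 466 with only 20 UMIs required and 10 without the filter. Those lower, 7 as reported, were 29, 43, 20, 24, 4, 421 and 4 in those settings except thinning, and 18 without cells with UMIs of other cell types. The interferon median in members, -0.19 as reported, was -0.11 with at least 2 genes, -0.48 when thinned (19 genes), -0.29 without cells of other types and -0.23 without cells of 3 or more *S100a6* UMIs. The cause of these shifts was not tested, apart from the number of genes compared. *S100a4* in control members over other cells changed sign to 0.68 with no limit on *Ccl5*, 0.16 when thinned, 0.0083 without cells of 3 or more *Ccl5* UMIs, 0.11 without the filter and 0.14 without cells of 3 or more *S100a6* UMIs. Between genotypes *S100a6* changed sign to -0.79 when thinned and -0.11 without the deepest cells, and *Anxa2* to -0.62 and *Hist1h1b* to 0.80 when thinned. *Ube2c* changed sign to -0.061 without cycling cells, which its own UMIs helped to choose.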
